A study of Homo sapiens with 4 samples.

Results

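The 10 genes described here are genes of the Hippo pathway that belong to the transcriptional co-activator YAP and its DNA-binding partners, the TEAD factors: *YAP1*, *TEAD1*, *TEAD4*, and the target genes *CTGF* (now *CCN2*), *CYR61* (now *CCN1*), *ANKRD1*, *AMOTL2*, *LATS2*, *AJUBA* and *AXL*. They were chosen by name, with earlier results of these data known, among 20046 genes that had a probe of 1 gene symbol on the array. All 10 had probes, 17 in total, and the probes were read in the table of intensities that were not normalized between arrays. Each intensity has a detection p-value, which compares a probe with the negative control probes of its array. A probe was kept when this p-value was under 0.05 on at least 2 of the 4 arrays, which left 10 of the 17 probes and 7 of the 10 genes.

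HCT116 is a human colorectal cancer line whose parental cells carry 1 wild-type and 1 mutant copy of *CTNNB1*, which encodes β-catenin, and the mutant copy lacks a serine codon. In HCT116-WT cells the mutant allele was disrupted and the wild-type allele remains, and in HCT116-MT cells the mutant allele remains. Each line gave 2 samples of total RNA, all from untreated cells grown in RPMI medium with serum, which were measured with 1 Illumina HumanHT-12 v4 BeadChip array per sample. Whether the samples were separate cultures, and whether each line is a single clone, is not given in the sources used here, so the p-values measure the spread between these arrays.

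Between 19604 and 20101 of 47321 probes were detected per array, with a median intensity between 122 and 135. After quantile normalization the HCT116-WT arrays had a correlation of 0.965 across kept probes, and the HCT116-MT arrays 0.980. The brightest kept *CTNNB1* probe read 2555 and 1761 on the HCT116-WT arrays and 2893 and 2001 on the HCT116-MT arrays, a log2 fold change of 0.29 with an SE of 0.20 (adjusted p = 0.683, limma), and it does not tell the alleles apart. Of 6 colon epithelium markers, *EPCAM*, *KRT8* and *CDX2* were measured, while *KRT18*, *KRT20* and *VIL1* were not kept. Of the measured markers *EPCAM*, an epithelial adhesion protein, was past the thresholds used below as lower in HCT116-MT (-0.92 on the log2 scale, adjusted p = 0.391, limma). Of 10 markers of fibroblasts, leukocytes and endothelium 4 were kept, and 0 passed them. In bulk RNA, fewer cells that express a gene and less RNA per cell cannot be told apart.

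In the Hippo pathway the kinases MST1 and MST2 activate LATS1 and LATS2, which phosphorylate YAP and its relative TAZ and hold them in the cytoplasm. When the kinases are silent, for example in sparse or spread cells, YAP enters the nucleus and binds TEAD factors, which recognize a short DNA word in promoters and enhancers. *CTGF*, *CYR61* and *ANKRD1* are the usual readouts of this activity, and *LATS2*, *AMOTL2* and *AJUBA* encode regulators that feed back on the pathway. β-catenin and YAP can be held by the same destruction complex, and *YAP1* has been described as a target of β-catenin in colorectal cancer cells.

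Promoter stretches with the TEAD word are shown because this word is what the target genes are known to share. The RefSeq promoter table (build GRCh38.p14, 250 bases before to 50 after each annotated start) held 10 promoters of 7 of the genes, *CTGF*, *ANKRD1*, *AMOTL2*, *LATS2*, *AJUBA*, *AXL* and *YAP1*. The word searched was GGAATG, on either strand (CATTCC when read on the gene's own strand), and each stretch runs 5′ to 3′ on the gene's strand with the word in capitals.
*CTGF* (chr6:131951437-131951566, minus strand): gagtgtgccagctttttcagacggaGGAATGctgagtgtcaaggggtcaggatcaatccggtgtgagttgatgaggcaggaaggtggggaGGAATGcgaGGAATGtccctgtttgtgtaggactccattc
*ANKRD1* (chr10:90921185-90921332, minus strand): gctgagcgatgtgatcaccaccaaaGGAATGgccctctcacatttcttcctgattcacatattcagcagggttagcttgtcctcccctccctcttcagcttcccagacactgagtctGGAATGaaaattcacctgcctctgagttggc
*AMOTL2* (chr3:134374486-134374541, minus strand): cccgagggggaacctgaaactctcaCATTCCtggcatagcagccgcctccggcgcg
*LATS2* (chr13:21061557-21061602, minus strand): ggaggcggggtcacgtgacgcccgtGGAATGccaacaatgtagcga
*AJUBA* (chr14:22976871-22976926, minus strand): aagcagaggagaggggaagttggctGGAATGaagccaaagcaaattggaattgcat
*AXL* (chr19:41226518-41226573, plus strand): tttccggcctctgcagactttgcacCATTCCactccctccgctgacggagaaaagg
*YAP1* (chr11:102110260-102110315, plus strand): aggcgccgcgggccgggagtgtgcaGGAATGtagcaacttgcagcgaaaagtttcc

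The word was found in 7 of the 10 promoters, at least once for each of the 7 genes, whereas 14% of all 35116 promoters of the same length held it. That share is per promoter and not per gene. Most of these genes were chosen as known targets, so the contrast is not an independent result. The *CTGF* promoter held the word 3 times, beginning 169, 104 and 95 bases before the start, a number reached by 0.128% of all promoters. The *ANKRD1* promoter held it 2 times, 220 and 128 bases before the start (1.37% of all promoters held at least 2). *AMOTL2*, *AJUBA* and *AXL* each had 2 annotated starts, of which 1 held the word. In *LATS2* the word lay just after the start and in *YAP1* 162 bases before it. AP-1 is a factor that often binds beside TEAD, and its word was searched in a loose form, TGANTCA with any base at N. This pattern reads the same on both strands. It was found in 1 of the 10 promoters, as TGATTCA in *ANKRD1* 195 bases before the start, where it overlapped no TEAD word. The loose pattern stood in 7.71% of all promoters. These matches describe letters only, and no binding was measured.

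**Figure D1:**
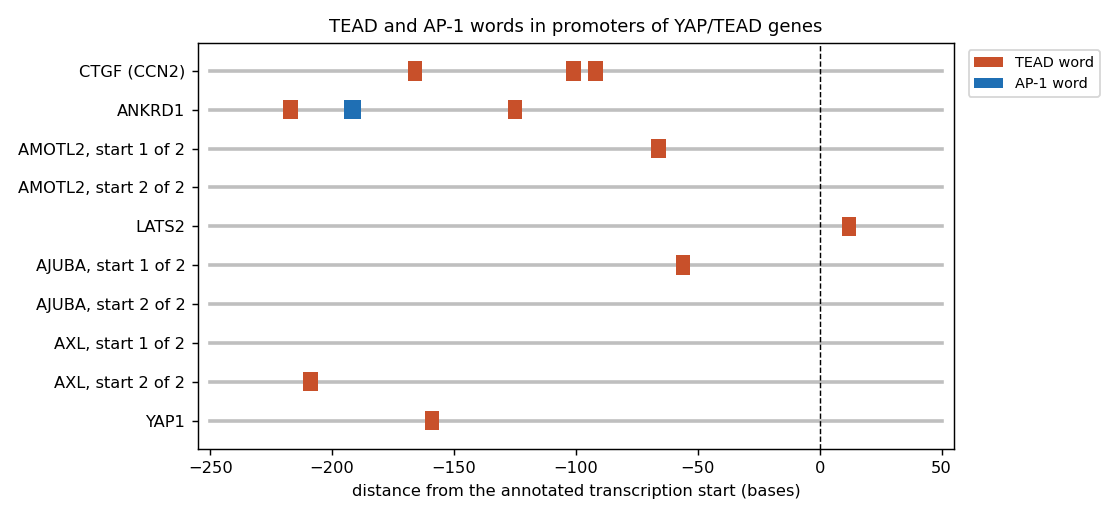
Place of TEAD words (orange) and AP-1 words (blue, in the loose form TGANTCA with any base at N) in the 10 RefSeq promoters of 7 YAP/TEAD genes. The x axis is the distance in bases from the annotated start (dashed line), and each gray line is a promoter from 250 bases before to 50 after it. The *CTGF* promoter holds 3 TEAD words, *ANKRD1* 2 and an AP-1 word, and 3 of the promoters hold none.

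HCT116-MT was compared with HCT116-WT by limma, a linear model with moderated variances, on log2 quantile-normalized intensities, and the brightest kept probe stood for a gene. The study's thresholds are an unadjusted p under 0.05 together with a change of more than 1.5-fold. By these, 0 of the 7 measured genes were higher and 0 were lower in HCT116-MT, where 3.48% of all 11875 measured genes were higher and 3.86% lower. At a Benjamini-Hochberg adjusted p under 0.05 limma called 0 of the 7, against 0.0505% of all genes (6 genes), and 0 of the 7 had an unadjusted p under 0.05, against 10.7%. The smallest unadjusted p was 0.061 and the adjusted p-values ran from 0.493 to 0.999. The mean was higher in HCT116-MT for 5 genes and lower for 2, beside 5933 and 5942 of all 11875 genes. Of the 5, *AJUBA* (0.0021) and *YAP1* (0.0028) lay close to 0 and turned negative with median scaling, with cyclic loess and without normalization. The median log2 fold change was 0.0028, against -0.00045 over all genes. Without HCT116-WT replicate 1 these medians were 0.44 and 0.015, and without HCT116-WT replicate 2 they were -0.051 and -0.0030. The median size of the change was 0.16 on the log2 scale among the 7 and 0.20 over all genes. The arrays of the lines did not overlap in 2 of the 7 genes, *CTGF* and *TEAD4*, where 39.9% of all genes had lines that did not overlap. In both genes HCT116-MT lay above, as in 20.7% of all genes, and in 0 of the 7 did both HCT116-MT arrays lie below, as in 19.1% of all genes.

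*CTGF* encodes a secreted matricellular protein that binds integrins and growth factors. Its brighter probe (ILMN_1699829) read 614 and 516 on the HCT116-WT arrays and 640 and 813 on the HCT116-MT arrays, before normalization. After normalization both HCT116-MT arrays lay above both HCT116-WT arrays, at 9.33 and 9.83 against 8.99 and 9.12 on the log2 scale. The log2 fold change was 0.52 (SE 0.22, 95% interval -0.03 to 1.08, adjusted p = 0.493 with limma), or 1.44-fold. The second probe (ILMN_2115125) read 329, 371, 452 and 416 in the same order of arrays and gave 0.47 (SE 0.21). Without HCT116-MT replicate 1 *CTGF* passed the study thresholds at 0.77 (unadjusted p = 0.033 with limma), and without HCT116-MT replicate 2 the value was 0.28 and did not pass.

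*CYR61*, a close relative of *CTGF* and also a secreted integrin ligand, had the other sign. Its single probe (ILMN_2188264) read 1663 and 1935 on the HCT116-WT arrays and 764 and 1495 on the HCT116-MT arrays. HCT116-MT replicate 1 was the lowest array, while HCT116-MT replicate 2 lay above HCT116-WT replicate 1 after normalization (10.68 against 10.42 on the log2 scale), so the lines overlapped. The log2 fold change was -0.61 (SE 0.41, 95% interval -1.63 to 0.41, adjusted p = 0.669 with limma). It was -1.15 without HCT116-MT replicate 2, when *CYR61* passed the study thresholds as lower (unadjusted p = 0.027 with limma), and -0.06 without HCT116-MT replicate 1. The HCT116-MT arrays differed 2.13-fold in *CYR61*, and 1.47% of all genes differed more between these arrays.

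*ANKRD1*, a nuclear ankyrin repeat protein and another common readout, was not detected. Its probe (ILMN_1716264) read 120 and 102 on the HCT116-WT arrays and 93.0 and 100.3 on the HCT116-MT arrays, with detection p-values from 0.253 to 0.682. A difference between the lines was not detectable at this signal.

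**Figure D2:**
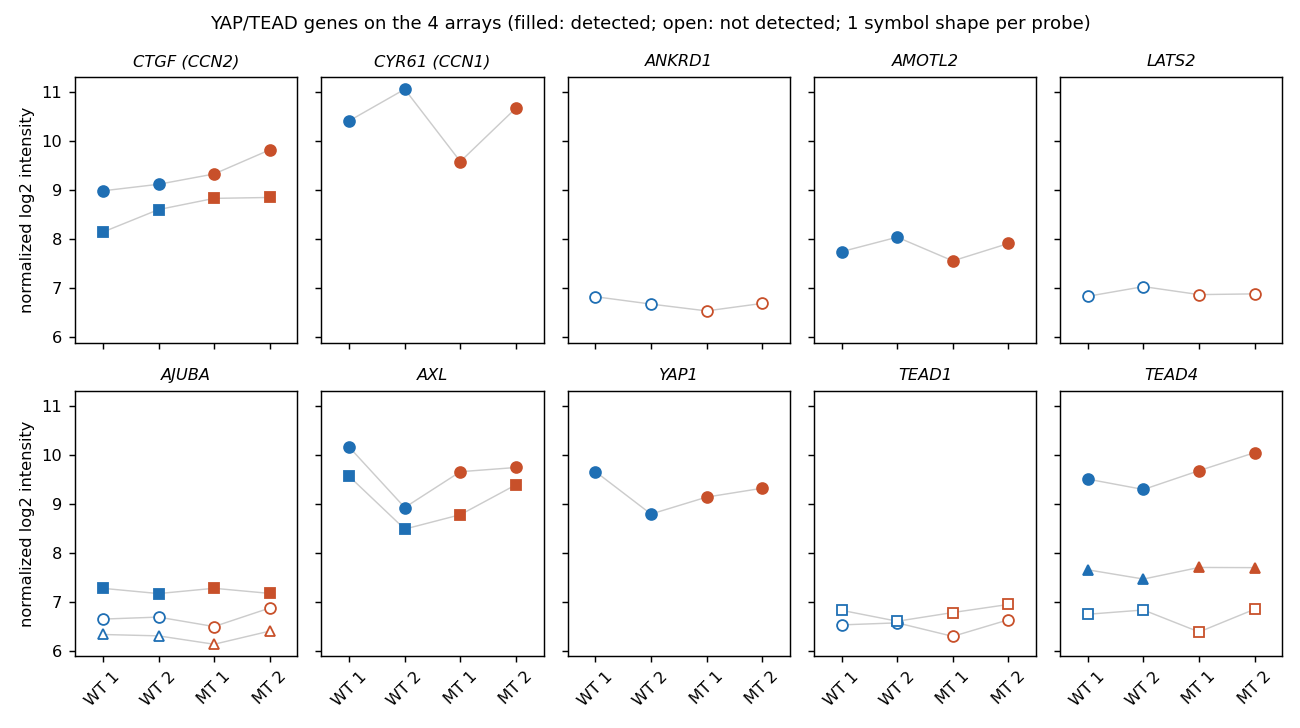
Normalized log2 intensity (y axis) of every probe of the 10 genes on the 2 HCT116-WT arrays (blue) and the 2 HCT116-MT arrays (orange), 1 symbol shape per probe; filled symbols are detected (detection p under 0.05) and open symbols are not. *CTGF* and *TEAD4* are the genes whose HCT116-MT arrays both lie above the HCT116-WT arrays, and *ANKRD1*, *LATS2* and *TEAD1* have open symbols throughout.

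The probes of the targets that feed back on the pathway gave low signal. A probe that reads poorly and a gene of low expression cannot be told apart by these values. *AMOTL2*, an angiomotin-like scaffold that binds YAP at junctions, read 244 and 255 on the HCT116-WT arrays and 188 and 221 on the HCT116-MT arrays (ILMN_1778788). After normalization the lines overlapped, HCT116-MT replicate 2 lying above HCT116-WT replicate 1, and the log2 fold change was -0.16 (SE 0.21, 95% interval -0.69 to 0.38, adjusted p = 0.838 with limma). Without HCT116-MT replicate 1 it was 0.019. *AJUBA*, a LIM protein that restrains LATS kinases at junctions under tension, had 3 probes, of which 1 was kept (ILMN_1687275). This probe read 169 and 141 on the HCT116-WT arrays and 155 and 137 on the HCT116-MT arrays, with detection p-values between 0.030 and 0.045, just under the limit of 0.05. Its log2 fold change was 0.0021 (SE 0.17, 95% interval -0.42 to 0.43), and replicate 1 was the higher array in both lines. *LATS2*, the kinase that phosphorylates YAP, was not detected on any array, its probe (ILMN_1703412) reading 120, 130, 117 and 114 with detection p-values from 0.084 to 0.242.

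*AXL*, a receptor tyrosine kinase of the TAM family and a target of YAP in several carcinomas, was the member with the widest spread between the HCT116-WT arrays. Its brighter probe (ILMN_1701877) read 1399 and 453 on the HCT116-WT arrays and 804 and 768 on the HCT116-MT arrays. Both HCT116-MT arrays lay between the HCT116-WT arrays, which differed 2.35-fold after normalization, and 2.70% of all genes differed more. The second probe (ILMN_2364521) had the same order of the HCT116-WT arrays, reading 912, 341, 434 and 606. The log2 fold change was 0.16 (SE 0.40, 95% interval -0.84 to 1.16, adjusted p = 0.929 with limma) for the brighter probe and 0.06 (SE 0.40) for the second. Without HCT116-WT replicate 1 it was 0.77, past the study thresholds (unadjusted p = 0.013 with limma), and without HCT116-WT replicate 2 it was -0.46.

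*YAP1* itself followed the same pattern. Its probe (ILMN_1709479) read 973 and 417 on the HCT116-WT arrays and 560 and 574 on the HCT116-MT arrays, so both HCT116-MT arrays again lay between the HCT116-WT arrays. The log2 fold change was 0.0028 (SE 0.31, 95% interval -0.77 to 0.78, adjusted p = 0.999 with limma), an interval that spans a fold of 1.5 in either direction. It was 0.44 without HCT116-WT replicate 1 and -0.43 without HCT116-WT replicate 2. The HCT116-WT arrays differed 1.82-fold in *YAP1*, and 7.93% of all genes differed more. *AXL* and *YAP1* were highest on HCT116-WT replicate 1 and lowest on HCT116-WT replicate 2, as were 1277 of the 11875 genes (10.8%).

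Of the TEAD factors among the 10 genes, *TEAD4* was expressed and *TEAD1* was not detected. The brightest *TEAD4* probe (ILMN_1705301) read 874 and 583 on the HCT116-WT arrays and 816 and 953 on the HCT116-MT arrays. After normalization both HCT116-MT arrays lay above both HCT116-WT arrays (9.68 and 10.04 against 9.50 and 9.29 on the log2 scale), with a log2 fold change of 0.46 (SE 0.21, 95% interval -0.05 to 0.98, adjusted p = 0.516 with limma). It was 0.65 without HCT116-MT replicate 1 and 0.28 without HCT116-MT replicate 2, and passed in neither case. A second kept probe (ILMN_2413041) read 227, 172, 206 and 192 and gave 0.14 (SE 0.17), while the last (ILMN_1722824) was not detected. The 2 probes of *TEAD1* (ILMN_1674049 and ILMN_1735055) read between 78.3 and 119 on all 4 arrays, with detection p-values from 0.156 to 0.944.

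**Figure D3:**
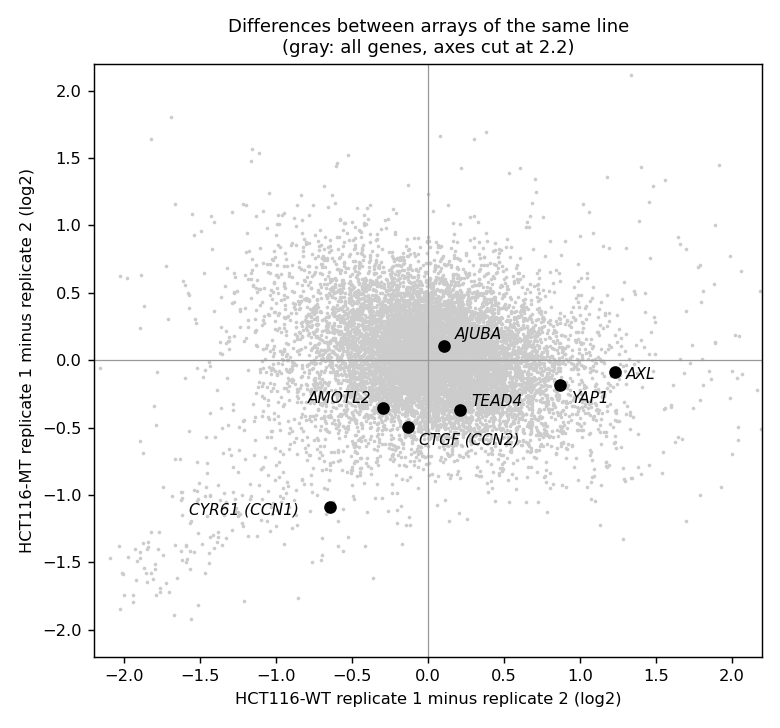
Difference between replicate 1 and replicate 2 on the log2 scale in HCT116-WT (x axis) and HCT116-MT (y axis), for all measured genes (gray) and the 7 measured YAP/TEAD genes (black). *AXL* and *YAP1* lie far to the right, at 1.23 and 0.87, and *CYR61* low on the left, at -0.64 and -1.09.

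In 5 of the 7 genes the arrays of a line differed by more than the means of the lines, the exceptions being *CTGF* and *TEAD4*. The share of all genes with this property was not counted, so it is not shown to be particular to these genes. The median difference between the HCT116-WT arrays was 0.30 on the log2 scale among the 7 genes and 0.27 over all genes, and between the HCT116-MT arrays 0.35 and 0.21. Over all genes, the HCT116-WT arrays differed more than 2-fold in 5.50% and the HCT116-MT arrays in 2.05%.

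Other genes of the pathway were read from 6 lists, 51 of whose 69 genes were measured. At the study thresholds 2 of the 51 were higher and 4 lower, beside 3.48% and 3.86% of all genes. At an adjusted p under 0.05 limma called 0, and 8 had an unadjusted p under 0.05, beside 10.7% of all genes. Of 16 further YAP/TAZ targets 11 were measured, with a median log2 fold change of -0.19 (-0.098 without HCT116-WT replicate 1), 0 higher and 1 lower. That gene was *MYOF*, a membrane repair protein of the ferlin family, which read 3256 and 2050 on the HCT116-WT arrays and 920 and 1031 on the HCT116-MT arrays. The lines did not overlap, and *MYOF* fell, at a log2 fold change of -1.29 (SE 0.21, adjusted p = 0.202 with limma), its other 2 probes giving -0.96 and -1.19.

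The kinases and scaffolds of the Hippo pathway did not pass in either direction, with 14 of 18 measured and a median of 0.0084 (-0.12 without normalization, 0.12 without HCT116-MT replicate 2 and -0.044 without HCT116-MT replicate 1). The changes furthest from 0 among them were those of *AMOT*, the first angiomotin (-0.56, SE 0.30, adjusted p = 0.582 with limma), and *MOB1B*, a co-activator of LATS kinases (0.41, SE 0.19, adjusted p = 0.525). *AMOT* read 887 and 1105 on the HCT116-WT arrays and 740 and 501 on the HCT116-MT arrays, and passed as lower without HCT116-WT replicate 1 (-0.93) or without normalization (-0.70), while without HCT116-WT replicate 2 it was -0.19 and without HCT116-MT replicate 2 -0.35. Of 7 genes for TAZ, the other TEADs and VGLL proteins 4 were measured, 0 passed, and the median was 0.17 (-0.029 without HCT116-WT replicate 2 and 0.033 without normalization). Among the TEADs on this list, *TEAD2* read 1880 and 803 on the HCT116-WT arrays and 1415 and 1254 on the HCT116-MT arrays (0.26, SE 0.30), with HCT116-WT replicate 1 the highest and replicate 2 the lowest array, as in *AXL* and *YAP1*. *TEAD3* read 171, 161, 208 and 160 (0.23, SE 0.19), near background, with detection p-values from 0.008 to 0.030. The value of *TEAD2* was 0.68, past the study thresholds, without HCT116-WT replicate 1 and -0.15 without HCT116-WT replicate 2.

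Both genes of the lists that rose were relatives or ligands of the YAP/TEAD targets. Of 10 listed 6 were measured, with 2 higher, 1 lower and a median of -0.13, which was 0.13 without HCT116-WT replicate 2, 0.014 without HCT116-MT replicate 2 and -0.38 without HCT116-WT replicate 1. *GAS6*, the vitamin K-dependent ligand of AXL and its relatives, read 619 and 775 on the HCT116-WT arrays and 1419 and 1371 on the HCT116-MT arrays. All HCT116-MT arrays lay above all HCT116-WT arrays on both kept probes, and the log2 fold change was 1.15 (SE 0.27, adjusted p = 0.318 with limma) and 1.09 (SE 0.22) on the other probe. Of the 8 measured neighbours of *GAS6* on chromosome 13, 6 also passed as higher. *TYRO3*, a second TAM receptor, read 636 and 368 on the HCT116-WT arrays and 892 and 692 on the HCT116-MT arrays and rose by 0.87 (SE 0.22, adjusted p = 0.333 with limma), a call that was lost with Student's t-test, without normalization (0.70) and without HCT116-MT replicate 1 (0.77). *CCN3*, a CCN family member related to *CTGF* and *CYR61*, read 515 and 311 on the HCT116-WT arrays and 148 and 140 on the HCT116-MT arrays, and fell by 1.34 (SE 0.21, adjusted p = 0.199 with limma). Its detection p-values on the HCT116-MT arrays were 0.044 and 0.040, near the limit, and with neqc background correction the log2 fold change was -2.25. The other TAM receptor, *MERTK*, did not pass (-0.40, SE 0.34).

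AP-1 factors were all measured, 7 of 7, and all 7 had a lower mean in HCT116-MT (6 with neqc background correction, 5 without HCT116-MT replicate 1 and 4 without HCT116-WT replicate 2), as had 5942 of all 11875 genes, with a median of -0.42, 0 higher and 1 lower at the study thresholds. *JUND*, a JUN family transcription factor, read 32580 and 23427 on the HCT116-WT arrays and 18281.5 and 13158 on the HCT116-MT arrays, and fell by 0.79 (SE 0.24, adjusted p = 0.376 with limma). It no longer passed without HCT116-WT replicate 1 (-0.59), without HCT116-MT replicate 2 (-0.59) or with Student's t-test. After normalization *FOS*, *FOSB* and *JUN*, immediate early genes named after their values were seen, were highest on HCT116-WT replicate 2, as was *CYR61*. Of the other AP-1 factors, *JUNB* and *FOSL2* were highest there, while *JUND* was highest on HCT116-WT replicate 1 and *FOSL1* on HCT116-MT replicate 2. Between the HCT116-MT arrays, replicate 2 was the higher for *FOS*, *FOSB*, *FOSL1* and *CYR61*, and replicate 1 for *JUN*, *JUNB*, *JUND* and *FOSL2*. The share of all genes highest on HCT116-WT replicate 2 was not counted, and the cause was not tested. *FOS* read 768 and 4049.7 on the HCT116-WT arrays and 1365 and 1826 on the HCT116-MT arrays. *FOSB* read 1117, 3047, 634 and 928, and *JUN* 1509, 2871, 1530 and 1321 in the same order. The list's median was -0.08 without HCT116-WT replicate 2.

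Targets of SRF, a factor that shares actin-driven control with YAP, were measured for 9 of 11 genes, with a median of -0.26, 0 higher and 1 lower. The gene was *FHL2*, a LIM protein of the cytoskeleton and nucleus, which read 12226 and 9408 on the HCT116-WT arrays and 5297 and 4796 on the HCT116-MT arrays and fell by 1.02 (SE 0.17, adjusted p = 0.202 with limma), and its other probe fell as well. The median of this list was -0.11 without HCT116-WT replicate 2. *MYOF*, *CCN3* and *FHL2* were past the study thresholds in all 15 settings tried and *GAS6* in 14 of them, all but the t-test.

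**Figure D4:**
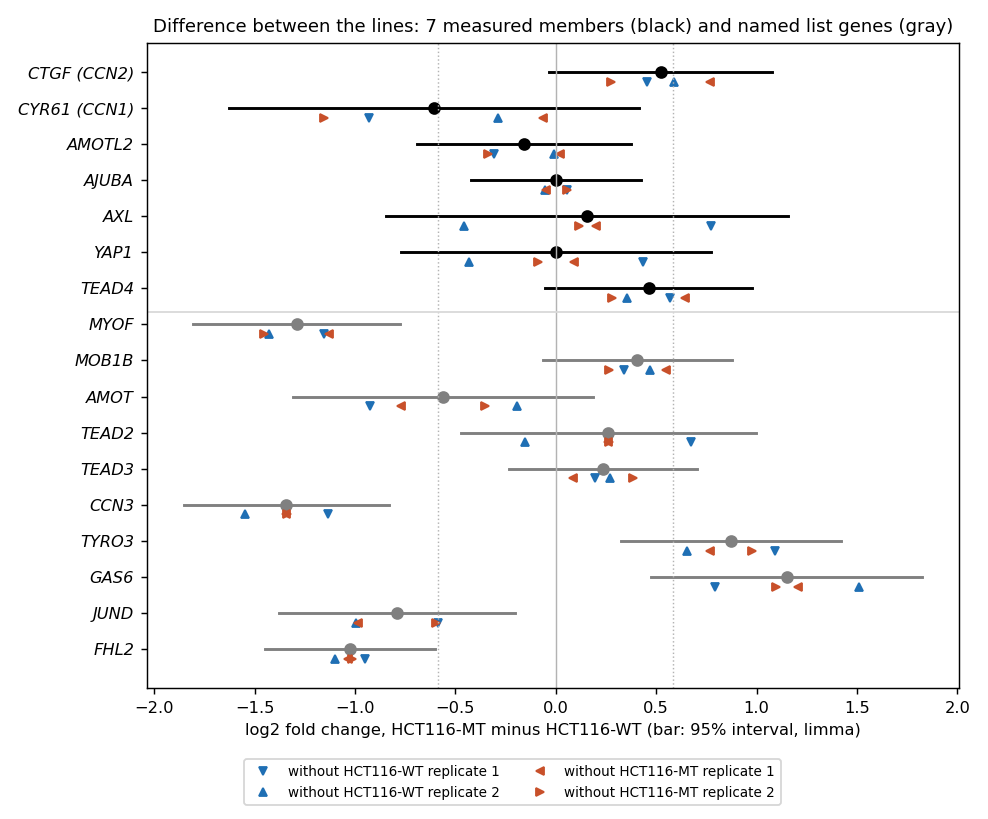
Log2 fold change of HCT116-MT minus HCT116-WT (x axis) with its 95% interval from limma for the 7 measured YAP/TEAD genes (black) and the named genes of the lists (gray); triangles give the value without each array and dotted lines a fold of 1.5. The intervals of all 7 black genes cross 0, while those of *MYOF*, *CCN3*, *TYRO3*, *GAS6*, *JUND* and *FHL2* do not.

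**Figure D5:**
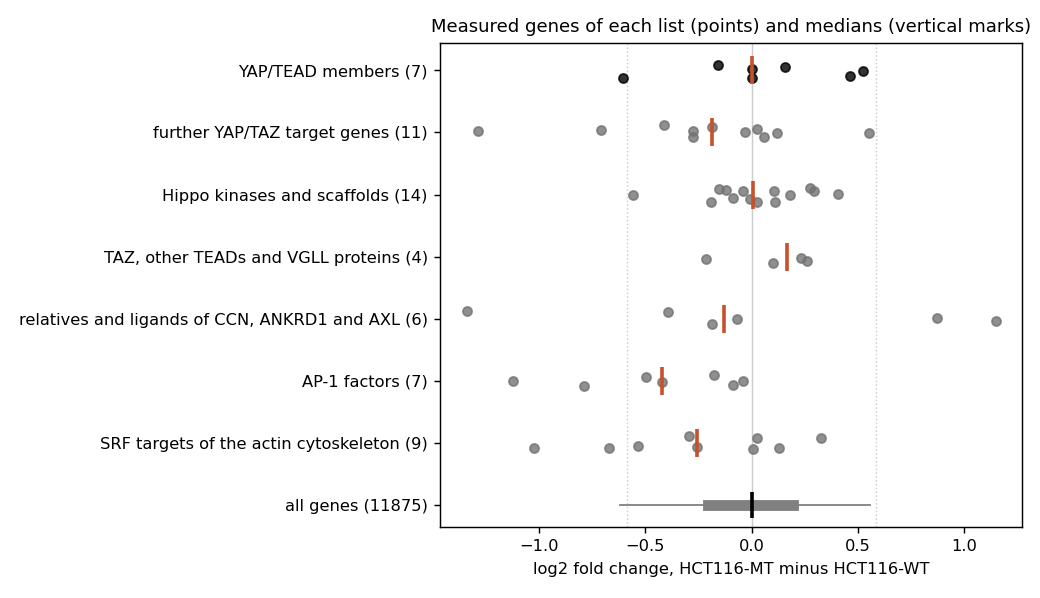
Log2 fold change of HCT116-MT minus HCT116-WT (x axis) for each measured gene (points) of the 7 YAP/TEAD genes and of 6 lists, with the median as a vertical mark and the number of genes in brackets; for all genes the box runs from percentile 25 to 75 and the thin line from percentile 5 to 95. All 7 AP-1 factors lie below 0 (6 with neqc background correction, 5 without HCT116-MT replicate 1 and 4 without HCT116-WT replicate 2), with a median of -0.42. The median of the YAP/TEAD genes is 0.0028 (0.44 without HCT116-WT replicate 1 and -0.051 without HCT116-WT replicate 2).

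The genes also differ in their surroundings on the chromosome, taken as the 5 measured genes on each side in RefSeq order. Beside *LATS2* on chromosome 13, 9 of 10 neighbours had a higher mean in HCT116-MT (median 0.35), as had 5933 of all 11875 genes. At the study thresholds 3 passed as higher, among them *EEF1AKMT1*, a lysine methyltransferase (0.99, SE 0.33), and *SKA3*, a kinetochore protein (0.96, SE 0.34). Over all genes 3.48% passed as higher and 3.86% as lower. *GAS6* lies on the same chromosome but has other neighbours. Of its 8 measured neighbours 6 passed as higher, with a median of 0.69. Beside *YAP1* on chromosome 11, 2 of 10 passed as lower, the matrix metalloproteinase genes *MMP10* (-2.13, SE 0.24) and *MMP1* (-0.96, SE 0.23), and the median was -0.12. Beside *AJUBA* 2 of 10 passed as lower, *LRP10* (-0.90) and *REM2* (-0.73), beside *AXL* *TMEM91* (-1.14) and beside *ANKRD1* *HTR7* (-1.15). Beside *CTGF*, *CYR61*, *AMOTL2*, *TEAD1* and *TEAD4* 0 of 10 neighbours passed, against 7.33% of all genes in either direction.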

How the data were processed

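The authors hybridised the RNA of 4 samples, 2 per line, to HumanHT-12 v4 BeadChips and extracted the data with GenomeStudio. The deposited table gives an intensity, with no normalization between arrays, and a detection p-value for every probe. The methods name quantile normalization and an integrated statistical method that they do not describe, so limma was used. The authors' series matrix, in which the values of many probe IDs stand beside another ID, was not used. Group and replicate came from the sample labels.

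Intensities were taken to log2, quantile-normalized and fitted over 20579 kept probes with limma 3.58.1 in R 4.3.3. The brightest kept probe stood for a gene, and p-values were adjusted by Benjamini-Hochberg over 11875 genes. Of all probes 30112 had 1 gene symbol, 8 had several and 17201 had none. The steps were tested on simulated arrays. Tables and figures were made with Python 3.11.15 and matplotlib 3.10.9. The number of arrays limits the precision, and no chip position was known.

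The members and lists were chosen with earlier results of these data known. The text names all 10 genes, from each list the genes past the study thresholds (at most 4, or the 2 with the largest change where none passed), *CTNNB1*, and at most 2 passing neighbours of a gene. *GAS6* neighbours, *MERTK*, *FOS*, *FOSB*, *JUN*, *JUNB*, *FOSL1* and *FOSL2* were added after their values were seen. As alternatives the normalization was median scaling, cyclic loess or none, the background was corrected with neqc (offset 16), the detection filter was removed, set at 0.01 or required on both arrays of a line, and a gene was taken as the mean of its kept probes. The test was changed to Student's t-test, to limma with a mean-variance trend and to limma with the replicate number as a block, and each array was left out in turn.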

Additional observations from a re-analysis of the deposited data

How the results depend on the processing

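Of the 7 measured YAP/TEAD genes, 0 passed the study thresholds in either direction under all alternatives that kept the 4 arrays, except that with the replicate number as a block 1 was lower, *CYR61* (-0.61, adjusted p = 0.463 with limma). The labels do not say whether the numbers pair the arrays, and they were not taken to do so. Over all kept probes same-numbered arrays had a correlation of deviations of 0.054, which cannot settle a pairing for single genes. After normalization replicate 2 was the higher array in both lines for *CTGF*, *CYR61* and *AMOTL2*, and replicate 1 for *AJUBA*. In *AXL*, *YAP1* and *TEAD4* the order differed between the lines. With 1 array left out the count of higher genes ran from 0 to 1 and that of lower genes from 0 to 1. At an adjusted p under 0.05 limma called 0 of the 7 in every setting.

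Signs of changes near 0 turned. *AJUBA* was -0.013 with median scaling, -0.0078 with cyclic loess, -0.080 without normalization and between -0.051 and 0.056 with an array left out, and had no value at a detection p under 0.01. *YAP1* was -0.10, -0.048 and -0.17 under the same 3 alternatives and between -0.43 and 0.44 with an array left out. *AXL* was -0.018 without normalization and between -0.46 and 0.77 with an array left out, *AMOTL2* between -0.34 and 0.019, and *TEAD2* between -0.15 and 0.68. The cause was not tested.

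Of the genes of the 6 lists, 2 higher and 4 lower, 1 and 9 passed without normalization, and 0 and 3 with Student's t-test, which lost *GAS6*, *TYRO3* and *JUND*, with 2 to 3 higher and 3 to 11 lower when an array was left out. Without normalization the median of all genes was -0.12 on the log2 scale, so changes there are relative to that shift. Over all genes, 413 higher and 458 lower became 152 and 175 with the t-test, 256 and 528 with median scaling and 151 and 697 without normalization, and ran from 260 to 784 and from 268 to 876 when an array was left out. The 6 genes at an adjusted p under 0.05 became 1 with the t-test, 2 with median scaling, 12 with neqc, 17 with a mean-variance trend and 0 with the replicate block, and ran from 0 to 64 when an array was left out, the 64 being without HCT116-WT replicate 2. Signal near background limits what could be measured for *ANKRD1*, *LATS2*, *TEAD1*, *AJUBA*, *TEAD3* and, in HCT116-MT, *CCN3*.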
